A study of Mus musculus with 8 samples.

Results

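The genes described here encode the autophagy machinery and the lysosomal signalling axis of TFEB and folliculin (FLCN). They were every protein-coding gene of the deposited count table whose symbol began with Atg and a digit, together with 28 named genes of the ULK1 and class III PI3-kinase complexes, the ATG8 family, the cargo receptors, the MiT/TFE factors and the FLCN and Rag GTPase branch. The rule used names and no measured value, although it was set with earlier results of these data known. It gave 47 of 56884 annotated genes (47 of 21633 protein-coding genes). All 47 had enough counts to be tested. One of them, Atg4a-ps, is named as a pseudogene although the table lists it as protein-coding.

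Polyadenylated RNA was sequenced in bulk from Lacun3 cells, a line derived from a murine adenocarcinoma of the lung. The 4 KO libraries came from untreated Lacun3 cells in which Stk11 had been knocked out with CRISPR, and the 4 WT libraries came from untreated parental Lacun3 cells. Both were grown in the same serum-containing medium and collected in logarithmic growth, and the labels describe the libraries of a genotype as biological replicates. The sources used here do not say whether the KO cells are a single clone, so every difference is one between these cell lines. Stk11 encodes LKB1, a kinase that activates AMPK, and the study set out to find expression changes of the cancer cells themselves after its loss, away from a host.

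Autophagy delivers cytoplasmic material to the lysosome inside a double-membraned vesicle. The ULK1 kinase complex starts it, a class III PI3-kinase complex marks the forming membrane, ATG9 and ATG2 supply lipid, and ATG8 proteins are attached to the membrane, where cargo receptors bind them. AMPK, the kinase activated by LKB1, phosphorylates ULK1 and promotes the process, whereas mTORC1 restrains it. mTORC1 also keeps the transcription factor TFEB out of the nucleus, a step that depends on the Rag GTPases and on FLCN, which acts on RagC and RagD. TFEB and its relatives switch on lysosomal and autophagy genes through an E-box with the core CACGTG, known as the CLEAR element.

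Because this E-box is the sequence through which the TFEB branch reaches its targets, promoters of the members were read for it. Windows of 300 bases, from 250 bases before to 50 bases after each annotated start site, were available from RefSeq (build GRCm38.p6) for 40 of the 47 members. No window was at hand for Becn1, Map1lc3a, Atg16l1, Pik3c3, Rb1cc1, Atg12 and Atg4a-ps. CACGTG, which reads the same on both strands, occurred in at least 1 window of 6 of these 40 members, against 8.09% of 27025 genes with a window. Distances are those of the first base of the core, so that the core of Atg14 runs across its start site. The 7 sites of these 6 members, each with 12 bases on either side on the gene's strand and the core in capitals, were as follows.
Rragc, chr4:123917309-123917338, plus strand, 112 bases before the start site: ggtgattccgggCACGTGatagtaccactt
Atg7, chr6:114670952-114670981, plus strand, 132 bases before the start site: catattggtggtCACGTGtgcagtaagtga
Atg5, chr10:44268313-44268342, plus strand, 14 bases before the start site: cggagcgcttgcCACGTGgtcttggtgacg
Fnip1, chr11:54438092-54438121, plus strand, 75 bases before the start site: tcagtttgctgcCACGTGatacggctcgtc
Atg14, chr14:47568418-47568447, minus strand, 1 base before the start site: aaaacaaaatccCACGTGactggccctgag
Atg3, chr16:45158723-45158752, plus strand, 94 bases before the start site: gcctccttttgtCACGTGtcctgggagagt
Atg3, chr16:45158746-45158775, plus strand, 71 bases before the start site: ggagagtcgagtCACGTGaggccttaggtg

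Of these 6 genes, Atg14 and Fnip1 were lower in KO cells, Atg5 was higher, and Rragc, Atg7 and Atg3 did not pass the test described below. Thus 2 of 19 members that fell and had a window carried the core (10.5%), against 1 of 8 that rose (12.5%) and 3 of 13 that did not pass (23.1%). The core extended by a T, TCACGTG on either strand, overlaps CACGTG and occurred in 5 of 40 members (12.5%), against 4.29% of all genes. TCACGTGA occurred in 1 of 40 members (2.5%), Atg3, against 1.12% of all genes. Other motifs that were counted were not more frequent among members. The M-box core, CATGTG on either strand, occurred in 2 of 40 members (5.0%), against 15.9% of all genes. The longer palindromic form of the CLEAR element occurred in 0 of 40 members, against 0.37% of all genes. Among lysosomal genes of the CLEAR network, a list known for this element, 14 of 24 genes with a window carried CACGTG (58.3%). A match is only a description of the letters in the window. The whole window of Atg14 is shown because it is the member with the largest fall among those carrying the core, and that of Atg3 because it is the only one with a pair of cores.
Atg14, chr14:47568385-47568684, minus strand: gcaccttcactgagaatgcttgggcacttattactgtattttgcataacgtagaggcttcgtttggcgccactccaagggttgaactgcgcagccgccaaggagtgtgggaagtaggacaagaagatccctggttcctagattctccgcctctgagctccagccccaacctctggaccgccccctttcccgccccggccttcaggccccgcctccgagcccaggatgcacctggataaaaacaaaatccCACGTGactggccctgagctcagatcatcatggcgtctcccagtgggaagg
Atg3, chr16:45158579-45158878, plus strand: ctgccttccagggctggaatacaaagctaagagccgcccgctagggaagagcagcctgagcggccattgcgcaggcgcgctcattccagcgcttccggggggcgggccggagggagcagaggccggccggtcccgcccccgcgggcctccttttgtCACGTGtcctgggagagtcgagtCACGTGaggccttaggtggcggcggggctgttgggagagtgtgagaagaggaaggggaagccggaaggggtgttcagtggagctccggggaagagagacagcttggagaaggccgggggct

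Libraries held 21441601 to 25715008 counts in KO and 18837263 to 21101904 counts in WT cells. Levels are given as CPM, counts scaled to a common library size after TMM normalisation, so that 1 count was worth 0.0388 to 0.0515 CPM. Stk11, the targeted gene, averaged 34.7 ± 0.853 CPM in KO and 66.3 ± 1.79 CPM in WT cells (SD, n = 4 each), a log2 fold change of -0.93 ± 0.06 (SE; edgeR quasi-likelihood test, adjusted p = 1.12e-12). Of 6 epithelial markers 5 were tested, and their summed level was 7700 to 8610 CPM in KO and 8160 to 8590 CPM in WT libraries, while Cldn7 was at 0. The sum covers changes in both directions. Krt18 fell 1.40-fold and Epcam 1.23-fold, and Krt19 rose 1.17-fold (edgeR adjusted p = 8.36e-07, 0.015 and 0.00245). Krt8 and Cdh1 did not pass. The 6 lung-lineage markers, among them Nkx2-1 and Sftpc, summed to at most 0.0927 CPM in any KO and 0.309 CPM in any WT library. The macrophage and leukocyte list summed to 13.1 to 25.7 CPM in KO and 46.4 to 53.0 CPM in WT libraries, nearly all of it Cd68, and Ptprc, Itgam and Adgre1 were at or near 0. The fibroblast list summed to 2.03 to 2.97 CPM in KO and 2.99 to 4.72 CPM in WT libraries, with Col1a2, Thy1 and Lum at 0, and the endothelial list to 3.53 to 5.00 CPM in KO and 1.93 to 3.66 CPM in WT libraries, with Kdr and Emcn at 0. In the endothelial list, Vwf fell to 0.125 ± 0.0624 CPM in KO, against 1.56 ± 0.496 CPM in WT cells, and Cdh5 rose to 4.17 ± 0.624 CPM in KO, against 1.36 ± 0.327 CPM in WT cells (SD, n = 4; edgeR adjusted p = 4.98e-08 for Vwf and 2.03e-07 for Cdh5). The part of these markers in the results was not tested, and in bulk RNA fewer cells of a type and less RNA per cell cannot be told apart. KO replicate 3 stood furthest from its group: pairs that held it had a chi-square per degree of freedom of 13.0 to 18.9, and no other pair of either genotype exceeded 8.90. It was the highest or lowest KO library for 35 of the 47 members (74.5%) and for 62.4% of all tested genes.

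Most of the 47 members changed in the KO cells, mostly by small amounts, and falls were more frequent than rises. Flcn, the cargo receptor gene Sqstm1, the ATG4 protease gene Atg4a and the lipid-transfer gene Atg2a were among those that fell, and the transcription factor gene Mitf had the largest rise. Of the members, 21 fell (44.7%) and 10 rose (21.3%), and 16 had an adjusted p of 0.05 or more by edgeR's quasi-likelihood method. Of all 13707 tested genes, 67.9% passed, 33.5% lower and 34.4% higher in KO, so that the 31 changed members (66.0%) were a share near that background. A change of at least 1.5-fold was found for 10 members (21.3%), 8 lower and 2 higher, against 31.9% of all tested genes, 16.9% lower and 15.0% higher. Only Rragd and Atg4a-ps, both with few counts, passed with at least 2-fold (4.26%), against 16.4% of all tested genes. The median log2 fold change was -0.10 for the members and 0.01 for all tested genes, and the median absolute log2 fold change was 0.27 and 0.37. The median SE on the log2 scale was 0.07 for the members and 0.08 for all tested genes. Values of KO and WT libraries did not overlap for 29 members (61.7%), against 60.6% of all tested genes. Without KO replicate 3, 12 members rose and 21 fell, and of all 13933 genes then tested 4856 rose and 4778 fell. Scaling by library size alone put the median log2 fold change of all genes at -0.07 against 0.01. With it 8 members rose and 25 fell, so that 75.8% of changed members were lower, against 67.7% with TMM. Of all changed genes 57.4% were then lower, against 49.4% with TMM.

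**Figure D1:**
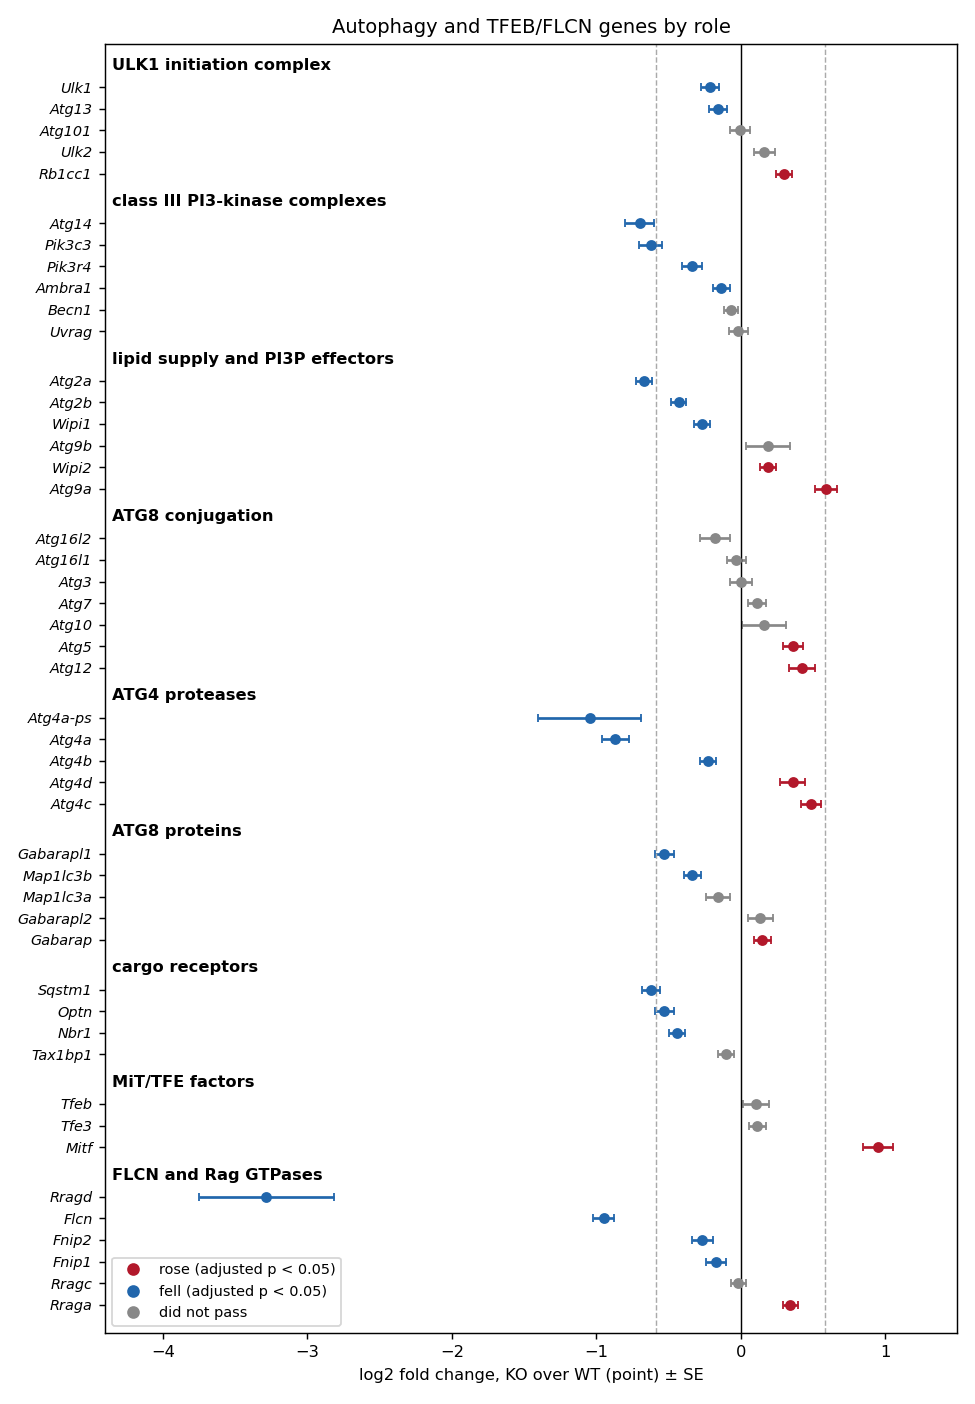
Log2 fold change of each of the 47 members, KO over WT, with its SE (bars), grouped by role. Red points rose, blue points fell and grey points did not pass the edgeR test, and dashed lines mark 1.5-fold. Rragd lies farthest to the left at -3.29 and Mitf farthest to the right at 0.95.

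The FLCN and Rag GTPase branch held the largest fall among well-counted members. Flcn (ENSMUSG00000032633.13, chr11:59682234-59700842, minus strand, GRCm39), whose product with the FNIP proteins is the GTPase-activating complex for RagC and RagD, had 17.9, 16.1, 17.6 and 18.3 CPM in KO libraries, against 32.6, 32.6, 36.9 and 32.9 CPM in WT libraries. Every KO value lay far below every WT value. Flcn was 1.93-fold lower in KO cells (log2 fold change -0.95 ± 0.07, SE; edgeR adjusted p = 9.27e-11). Among the 10 tested genes nearest to Flcn, within 313605 bp of it, 7 rose and 1 fell (median 0.32). Near other members that fell, the 10 nearest tested genes went either way. Near Atg14, 6 rose and 1 fell (median 0.35), whereas near Gabarapl1, 2 rose and 6 fell (median -0.80). The part of chromosomal position was not tested. Fnip2, one of the FLCN partners, fell 1.20-fold (26.6 ± 1.89 CPM in KO and 31.9 ± 2.42 CPM in WT, SD, n = 4; edgeR adjusted p = 0.00317). Fnip1, the other partner, averaged 35.3 ± 2.39 CPM in KO and 39.6 ± 2.75 CPM in WT cells with overlapping groups, and its fall had an adjusted p of 0.0339. That call was lost when KO replicate 2, KO replicate 3, WT replicate 1 or WT replicate 3 was left out. It was also lost by DESeq2 (adjusted p = 0.0508) and without a filter on low counts (edgeR adjusted p = 0.0522). The adjusted p of Fnip1 ran from 0.00256 to 0.138 over the alternatives that test for any change.

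The Rag GTPases tether mTORC1 to the lysosome as pairs of RagA or RagB with RagC or RagD. Rragd (chr4:32983037-33022180, plus strand), which encodes RagD, had 2, 1, 1 and 4 counts in KO libraries, against 15, 28, 15 and 20 counts in WT libraries. It was therefore scarce in both genotypes and lower in every KO library (log2 fold change -3.29 ± 0.47, SE; edgeR adjusted p = 1.54e-06), and leaving out single libraries gave -3.84 to -3.00. Rraga, which encodes RagA, rose 1.27-fold to 108 ± 4.10 CPM in KO, against 84.8 ± 1.43 CPM in WT cells (SD, n = 4; edgeR adjusted p = 3.39e-06). Rragc averaged 77.9 ± 1.56 CPM in KO and 78.9 ± 1.67 CPM in WT cells and did not pass (adjusted p = 0.771). Rragb, not a member, had no count in any library. Per exon length, Rragc made up 25.5% to 26.8% of the transcripts of Rraga, Rragc and Rragd in KO libraries and 30.7% to 31.2% in WT libraries, and Rragd at most 0.33% in any library.

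Of the MiT/TFE transcription factors, Mitf changed and the other pair did not pass the test. Mitf (chr6:97784013-97998310, plus strand), best known as the melanocyte factor of this family, had 13.8, 13.2, 12.3 and 13.5 CPM in KO libraries, against 6.76, 7.46, 5.87 and 7.21 CPM in WT libraries. The groups were well apart, and Mitf rose 1.93-fold (log2 fold change 0.95 ± 0.10, SE; edgeR adjusted p = 2.31e-08). Tfeb, the factor most studied in autophagy, had 404, 395, 542 and 348 counts in KO libraries, against 403, 388, 372 and 318 counts in WT libraries. After scaling it averaged 19.0 ± 2.13 CPM in KO and 17.7 ± 1.22 CPM in WT cells (SD, n = 4), with overlapping groups (log2 fold change 0.10 ± 0.09, SE; adjusted p = 0.312). Tfe3 averaged 79.0 ± 5.04 CPM in KO and 73.0 ± 2.00 CPM in WT cells (adjusted p = 0.0776) and passed when KO replicate 4 was left out, within a range of 0.0397 to 0.655 over the alternatives that test for any change. Per exon length, Tfe3 was the most abundant in every library, with 60.9% ± 1.11 of the 3 transcripts in KO and 65.2% ± 1.40 in WT cells, while Mitf took 15.3% ± 1.49 in KO and 9.11% ± 0.985 in WT cells (SD, n = 4). These shares are descriptions without a test, and counts per gene do not separate the promoters from which Mitf can be transcribed.

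**Figure D2:**
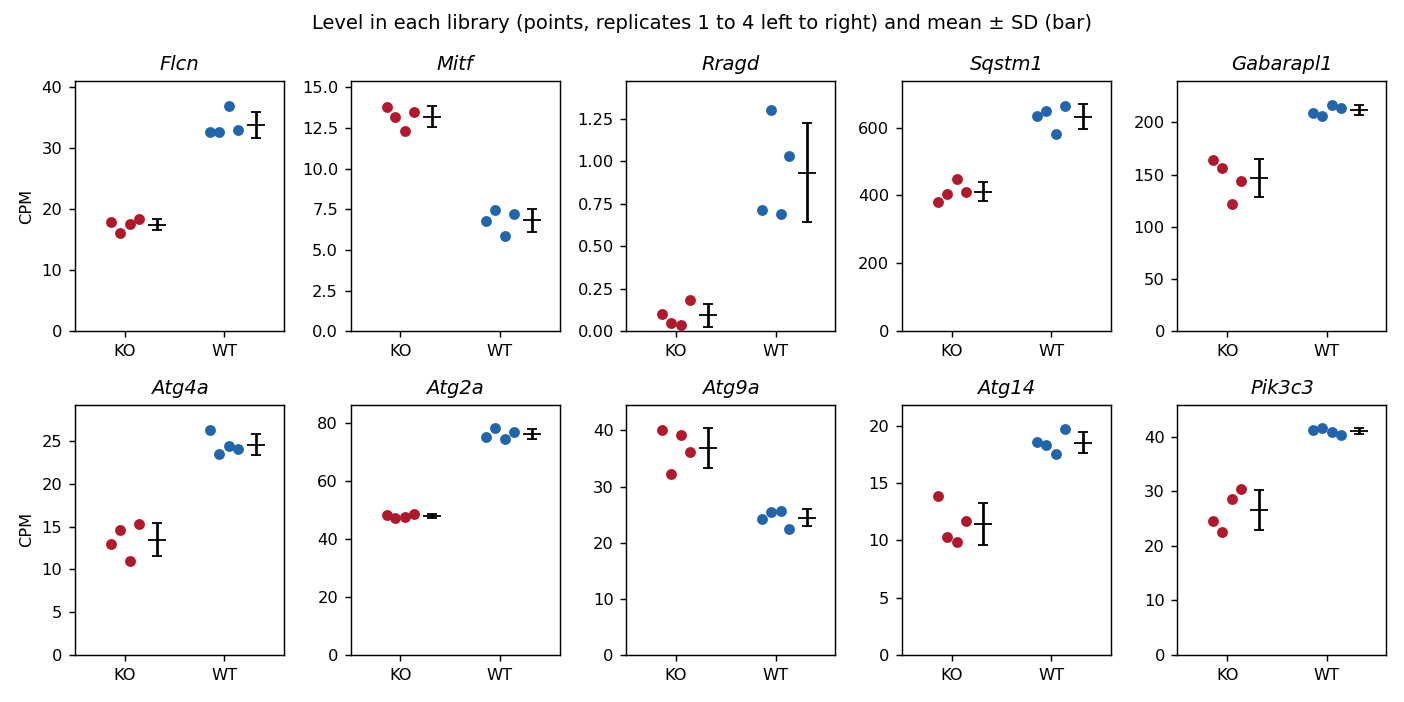
CPM of 10 members in each KO library (red, left) and WT library (blue, right), replicates 1 to 4 from left to right, with mean ± SD (black); every axis starts at 0. The KO and WT points do not overlap in any panel, with Mitf and Atg9a higher in KO and the other 8 lower.

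Cargo receptors bind both an ATG8 protein and the material to be degraded, and 3 of the 4 members fell (75%), against 67.9% of all tested genes that changed and 33.5% that were lower in KO. Sqstm1 (chr11:50090193-50101654, minus strand), which encodes p62, the receptor of ubiquitinated aggregates, had 381, 403, 448 and 411 CPM in KO libraries, against 634, 650, 580 and 663 CPM in WT libraries. The highest KO library lay well under the lowest WT library. Sqstm1 fell 1.54-fold (log2 fold change -0.62 ± 0.06, SE; edgeR adjusted p = 4.21e-09). Optn, which encodes the mitophagy receptor optineurin, fell 1.45-fold, with 36.2 ± 2.77 CPM in KO and 52.4 ± 2.43 CPM in WT cells (SD, n = 4; adjusted p = 1.83e-07). Nbr1, a relative of p62 that also takes part in peroxisome turnover, fell 1.36-fold, with 159 ± 8.67 CPM in KO and 216 ± 9.59 CPM in WT cells (adjusted p = 1.6e-07). Tax1bp1 averaged 270 ± 11.7 CPM in KO and 290 ± 14.5 CPM in WT cells and did not pass (adjusted p = 0.0996). It passed without KO replicate 3 or without WT replicate 3, and scaled by library size alone, with adjusted p from 0.00599 to 0.27 over the alternatives that test for any change. Together the 4 receptor genes summed to 877 ± 39.2 CPM in KO and 1190 ± 53.9 CPM in WT cells (SD, n = 4). Per exon length Sqstm1 stood at 122 ± 8.35 RPKM in KO and 188 ± 11.0 RPKM in WT cells (RPKM being CPM per kilobase of exon).

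The ATG8 proteins, ubiquitin-like proteins attached to the lipid of the autophagosome, comprise the LC3 and GABARAP subfamilies, and the balance between 2 GABARAP members moved. Gabarapl1 (chr6:129510123-129519309, plus strand) had 164, 156, 122 and 144 CPM in KO libraries, against 209, 206, 217 and 214 CPM in WT libraries. All KO values were below all WT values, the lowest in KO replicate 3. Gabarapl1 fell 1.44-fold (log2 fold change -0.53 ± 0.07, SE; edgeR adjusted p = 3.7e-07), and without KO replicate 3 its log2 fold change was -0.45. Map1lc3b, which encodes the common autophagosome marker LC3B, had 72.5, 73.5, 61.7 and 69.6 CPM in KO libraries, against 87.2, 87.0, 86.7 and 89.1 CPM in WT libraries. The groups did not overlap, and Map1lc3b fell 1.26-fold (adjusted p = 2.38e-05).

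Of the other ATG8 genes, Gabarap averaged 213 ± 20.0 CPM in KO and 192 ± 3.79 CPM in WT cells with overlapping groups, a rise with an adjusted p of 0.0308. The call was lost when KO replicate 1 or 4 or any single WT replicate was left out, with log2 fold changes of 0.10 to 0.21 over the left-out libraries against 0.15 with all. It was also lost by DESeq2 (adjusted p = 0.0569) and with scaling by library size alone (log2 fold change 0.06, adjusted p = 0.313), and adjusted p ran from 0.000574 to 0.313 over the alternatives that test for any change. The value of 0.10 came without KO replicate 1. Map1lc3a averaged 14.7 ± 0.864 CPM in KO and 16.4 ± 1.04 CPM in WT cells and Gabarapl2 27.7 ± 3.27 CPM in KO and 25.2 ± 1.93 CPM in WT cells, neither passing (adjusted p = 0.101 and 0.163). Gabarapl2 passed without KO replicate 3 and Map1lc3a when scaled by library size alone, with adjusted p of 0.0145 to 0.612 and of 0.0164 to 0.25 over the alternatives that test for any change. Per exon length, Gabarap took 52.0% ± 0.863 of ATG8 transcripts in KO and 42.4% ± 0.274 in WT cells, and Gabarapl1 32.8% ± 1.16 in KO and 42.8% ± 0.780 in WT cells (SD, n = 4). In WT libraries these 2 transcripts were about level, while in each KO library Gabarap was ahead. Map1lc3b took 3.95% to 4.30% in KO and 4.68% to 4.85% in WT libraries. These shares depend on the exon lengths. By counts without length, Map1lc3b took 14.8% in KO and 16.45% in WT cells. Gabarapl1 was then ahead of Gabarap in WT cells, with 39.7% against 36.0%, and behind it in KO cells, with 31.1% against 45.2%.

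The ATG4 proteases, which trim ATG8 proteins before attachment and release them afterwards, moved in opposite directions. All 5 genes of this group passed, Atg4a-ps among them by edgeR but not by DESeq2, against 67.9% of all tested genes. Atg4a (chrX:139857656-139947266, plus strand), whose product in human cells acts mainly on the GABARAP subfamily, had 13.0, 14.6, 11.0 and 15.3 CPM in KO libraries, against 26.3, 23.5, 24.4 and 24.0 CPM in WT libraries. No KO value came near the WT values, and Atg4a fell 1.83-fold (log2 fold change -0.87 ± 0.09, SE; edgeR adjusted p = 1.91e-08). Atg4b, the protease of broadest action, had 56.1, 56.3, 53.3 and 55.1 CPM in KO libraries, against 67.6, 65.9, 61.2 and 64.0 CPM in WT libraries. The groups did not overlap, and its fall was 1.17-fold (adjusted p = 0.000974). In the other direction, Atg4c rose 1.40-fold, with 35.7 ± 1.34 CPM in KO and 25.5 ± 1.76 CPM in WT cells (adjusted p = 1.58e-06), and Atg4d 1.28-fold, with 18.2 ± 1.43 CPM in KO and 14.2 ± 0.747 CPM in WT cells (adjusted p = 0.000725). Per exon length, Atg4c became the most abundant protease transcript in KO cells with 42.9% ± 1.67 of the 4, against 28.6% ± 1.30 in WT cells, and Atg4a took 20.3% ± 2.26 in KO and 34.7% ± 0.992 in WT cells (SD, n = 4). This order depends on the exon lengths. By counts without length, Atg4b led in both genotypes, with 45.0% in KO and 50.2% in WT cells. Atg4c then took 29.2% in KO and 19.8% in WT cells.

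Atg4a-ps had 5, 6, 11 and 7 counts in KO libraries, against 17, 13, 18 and 9 counts in WT libraries. All KO values lay under the WT values after scaling (0.321 ± 0.0778 CPM in KO and 0.675 ± 0.174 CPM in WT, SD, n = 4; log2 fold change -1.05 ± 0.35, SE; edgeR adjusted p = 0.0123), and DESeq2 gave an adjusted p of 0.0574 in a range of 0.00788 to 0.0574 over the alternatives that test for any change. Its name marks it as a copy of Atg4a, and the sources used here do not say how reads that match both places were counted, so its values and those of Atg4a are uncertain to that extent.

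**Figure D3:**
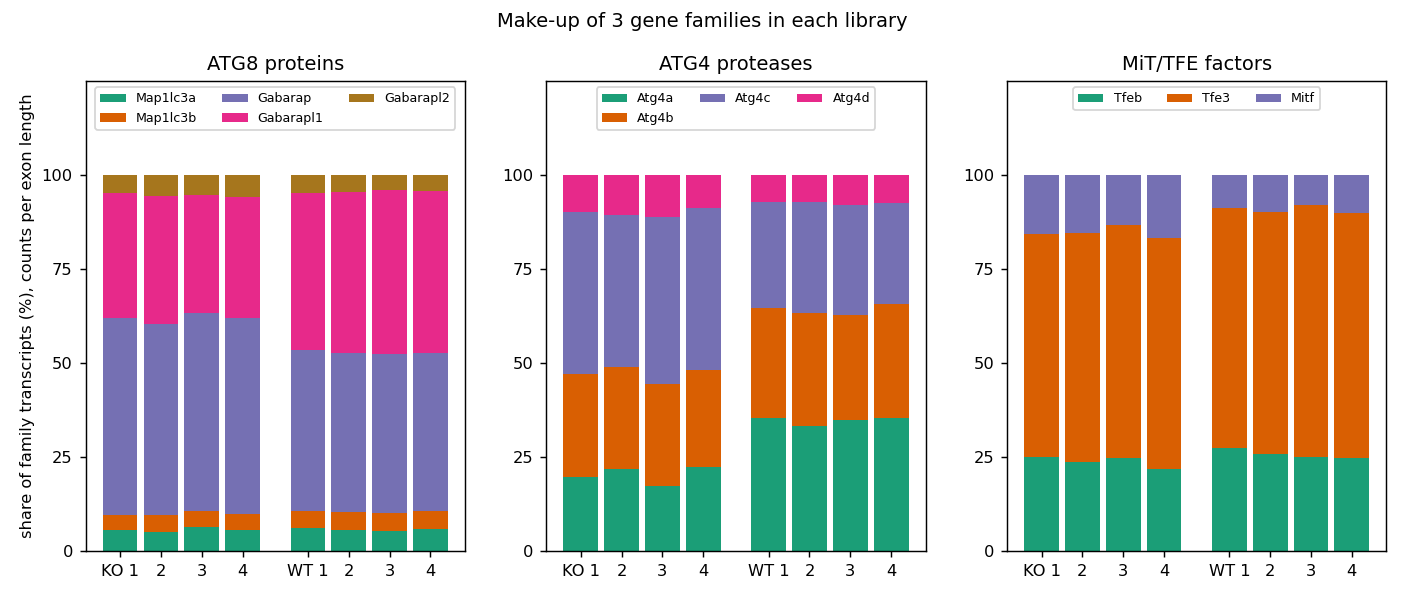
Share of each family member in the transcripts of its family, in percent of counts per exon length, for ATG8 proteins (left), ATG4 proteases (middle) and MiT/TFE factors (right); each bar is 1 library, KO libraries on the left of each panel and WT on the right. Gabarap, Atg4c and Mitf take larger shares in every KO library than in any WT library.

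Of the 6 class III PI3-kinase genes, 4 fell, none rose and 2 did not pass (66.7% changed), against 67.9% of all tested genes. This complex of VPS34 (Pik3c3), VPS15 (Pik3r4) and Beclin 1 carries ATG14 in autophagy or UVRAG in endosomal traffic. Pik3c3 had 24.5, 22.6, 28.6 and 30.5 CPM in KO libraries, against 41.3, 41.5, 40.8 and 40.3 CPM in WT libraries. The KO values varied more among themselves than the WT values, yet stayed below them, and Pik3c3 fell 1.54-fold (log2 fold change -0.62 ± 0.08, SE; edgeR adjusted p = 2.63e-07). Atg14 (chr14:47778350-47808106, minus strand), the subunit that directs the complex to autophagy, had 13.9, 10.3, 9.83 and 11.7 CPM in KO libraries, against 18.6, 18.3, 17.5 and 19.7 CPM in WT libraries. It was lower in every KO library, 1.62-fold on average (log2 fold change -0.70 ± 0.10, SE; adjusted p = 1.5e-06). Pik3r4 fell 1.27-fold, with 33.5 ± 2.48 CPM in KO and 42.4 ± 2.68 CPM in WT cells (adjusted p = 0.000146).

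Becn1, which encodes Beclin 1, had 111, 112, 110 and 112 CPM in KO libraries, against 115, 121, 113 and 117 CPM in WT libraries. The groups did not overlap but lay close, and Becn1 did not pass (log2 fold change -0.07 ± 0.05, SE; adjusted p = 0.223); scaled by library size alone it did, with adjusted p from 0.0102 to 0.448 over the alternatives that test for any change. Uvrag, the partner of the endosomal complex, averaged 36.1 ± 2.46 CPM in KO and 36.5 ± 2.02 CPM in WT cells (adjusted p = 0.832), and its direction turned without KO replicate 1 or WT replicate 2. Ambra1, a scaffold that binds Beclin 1, averaged 50.0 ± 2.71 CPM in KO and 55.0 ± 1.03 CPM in WT cells, a fall with an adjusted p of 0.044. That call was lost without KO replicate 2, without KO replicate 4, without any single WT replicate and by DESeq2. It was also lost without a filter on low counts, by limma on deposited values and with the replicate number as a block. The adjusted p of Ambra1 ran from 0.00355 to 0.188 over the alternatives that test for any change.

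In the lipid supply step, Atg2a and Atg2b fell and Atg9a rose. Atg2a (chr19:6291698-6312365, plus strand), which encodes a bridge-like lipid transfer protein, had 48.4, 47.3, 47.4 and 48.7 CPM in KO libraries, against 75.2, 78.3, 74.5 and 77.0 CPM in WT libraries. The spread within each group was small beside the gap, and Atg2a fell 1.59-fold (log2 fold change -0.67 ± 0.05, SE; edgeR adjusted p = 1.51e-10). Its paralogue Atg2b fell 1.35-fold, with 102 ± 3.68 CPM in KO and 138 ± 4.77 CPM in WT cells (adjusted p = 1.13e-07). Atg9a (chr1:75157504-75168840, minus strand), the lipid scramblase of the vesicles that seed the membrane, had 40.0, 32.2, 39.1 and 36.1 CPM in KO libraries, against 24.2, 25.4, 25.7 and 22.4 CPM in WT libraries. It was higher in every KO library and rose 1.51-fold (log2 fold change 0.59 ± 0.08, SE; adjusted p = 3.67e-07). Atg9b, its paralogue, averaged 221 ± 38.7 CPM in KO and 194 ± 31.1 CPM in WT cells with overlapping groups and did not pass (adjusted p = 0.313). Without WT replicate 3, its highest WT library at 238 CPM, it passed, with adjusted p from 0.0417 to 0.588 over the alternatives that test for any change. Per exon length, Atg9b made up 87.1% to 90.8% of ATG9 transcripts in KO and 90.5% to 93.1% in WT libraries. Of the WIPI proteins, which read the lipid made by the PI3-kinase, Wipi1 fell 1.20-fold (66.5 ± 4.37 CPM in KO and 80.0 ± 1.10 CPM in WT; adjusted p = 0.000233). Wipi2 rose 1.14-fold (95.7 ± 3.80 CPM in KO and 84.0 ± 2.58 CPM in WT; adjusted p = 0.00315), a call lost with scaling by library size alone, where adjusted p was 0.088 in a range of 0.000495 to 0.088 over the alternatives that test for any change.

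Of the 5 genes of the ULK1 complex, 2 fell, 1 rose and 2 did not pass, so that 60% changed, against 67.9% of all tested genes. Ulk1, the AMPK and mTORC1 substrate kinase, had 33.8, 34.6, 34.6 and 32.7 CPM in KO libraries, against 38.0, 40.0, 41.4 and 38.4 CPM in WT libraries. The groups did not overlap, and Ulk1 fell 1.16-fold (log2 fold change -0.22 ± 0.06, SE; edgeR adjusted p = 0.00373). Its paralogue Ulk2 averaged 28.0 ± 2.27 CPM in KO and 25.1 ± 0.856 CPM in WT cells (adjusted p = 0.0545) and passed without KO replicate 1 or KO replicate 2, with adjusted p from 0.0183 to 0.378 over the alternatives that test for any change. Rb1cc1, which encodes the scaffold FIP200, rose 1.23-fold, with 65.4 ± 1.42 CPM in KO and 53.1 ± 2.09 CPM in WT cells (adjusted p = 4.95e-05). Atg13, the adaptor of the complex, averaged 46.5 ± 2.87 CPM in KO and 51.9 ± 2.34 CPM in WT cells, a fall with an adjusted p of 0.028 and overlapping groups. That call was lost without KO replicate 2 or 4 or without WT replicate 2, 3 or 4, and without a filter on low counts. The adjusted p of Atg13 ran from 0.0017 to 0.113 over the alternatives that test for any change. Atg101, which stabilises ATG13, averaged 34.8 ± 2.98 CPM in KO and 34.9 ± 0.954 CPM in WT cells (adjusted p = 0.937), and its direction turned without KO replicate 2, KO replicate 3 or WT replicate 2.

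The enzymes that attach ATG8 proteins to lipid held 2 changed genes among 7 (28.6%), both upward, against 67.9% of all tested genes, and 3 of 7 passed without KO replicate 3. Atg5, part of the ATG12-ATG5-ATG16L1 ligase, had 36.5, 40.6, 36.4 and 40.1 CPM in KO libraries, against 30.1, 32.1, 27.8 and 29.5 CPM in WT libraries. The groups did not overlap, and Atg5 rose 1.28-fold (log2 fold change 0.36 ± 0.07, SE; edgeR adjusted p = 6.55e-05). Atg12, whose product is joined to ATG5, had 97.1, 95.4, 69.1 and 98.9 CPM in KO libraries, against 69.1, 63.8, 67.3 and 68.0 CPM in WT libraries. KO replicate 3 lay at the level of the highest WT library while the other KO libraries were far above, and Atg12 rose 1.34-fold (log2 fold change 0.43 ± 0.09, SE; adjusted p = 0.000498), or by 0.54 on the log2 scale without KO replicate 3. The other 5 members, the E1-like enzyme gene Atg7, the E2-like genes Atg3 and Atg10, and Atg16l1 and Atg16l2, had log2 fold changes between -0.18 and 0.16 and did not pass, with adjusted p from 0.12 for Atg7 to 0.982 for Atg3. Atg7 passed without KO replicate 3 and Atg16l2 when scaled by library size alone, with adjusted p of 0.0273 to 0.703 and of 0.0357 to 0.28 over the alternatives that test for any change. Atg16l1 turned direction without KO replicate 3, and Atg3, at a log2 fold change of 0.0021, turned without KO replicate 3 or 4 or WT replicate 2 or 3.

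Per exon length the members spanned a wide range of levels, and their median lay at percentile 59.4 of all tested genes with a length. The most abundant in both genotypes were Sqstm1, Gabarap, Gabarapl1, Rraga and Atg9b. In KO cells Gabarap stood at 115 ± 10.9 RPKM, within the spread of Sqstm1, Gabarapl1 at 72.8 ± 8.99 RPKM, Rraga at 66.4 ± 2.53 RPKM and Atg9b at 56.0 ± 9.81 RPKM, so that Gabarapl1, Rraga and Atg9b lay within about the spread of their neighbours in this order. In WT cells Gabarapl1 at 105 ± 2.52 RPKM and Gabarap at 104 ± 2.05 RPKM were not apart, followed by Rraga at 52.4 ± 0.881 RPKM and Atg9b at 49.1 ± 7.88 RPKM. Rragd was the lowest, at 0.0179 ± 0.013 RPKM in KO and 0.180 ± 0.0558 RPKM in WT cells (SD, n = 4 for all). Chromosome 11 held 8 of the 47 members (17.0%), among them Sqstm1, Flcn, Nbr1 and Becn1, against 8.08% of tested genes, and the median log2 fold change of its tested genes was -0.09.

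Some members share bases with a gene on the opposite strand, and the sources used here do not state which strand setting the counting had. Among them, Atg16l2 overlaps Fchsd2 over 21372 bp, Becn1 overlaps Cntd1 over 10366 bp and Rb1cc1 overlaps a long noncoding RNA gene over 9097 bp, introns included. Atg4d overlaps Kri1 over 4316 bp, Atg4b overlaps Thap4 over 3365 bp and Atg9b overlaps Nos3 over 294 bp. Further overlaps are not listed. Of the partners named, Fchsd2 (log2 fold change 0.42) and Nos3 (1.44) were higher in KO cells by edgeR (adjusted p = 8.01e-05 for Fchsd2 and 6.47e-06 for Nos3). Cntd1, Kri1, Thap4 and the partner of Rb1cc1 did not pass. Atg9a shares 46 bp with Ankzf1, which rose as well (log2 fold change 0.41; adjusted p = 8.03e-05). Their part in the members' values was not tested.

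Lists of neighbouring pathway genes, none of them members, were set beside the members by the same fit, and their counts stand against 67.9% of all tested genes changed, 33.5% lower and 34.4% higher in KO. Of 29 tested lysosomal genes of the CLEAR network, 17 fell and 7 rose (82.8% changed), with a median log2 fold change of -0.33. Glb1 and Neu1, which encode lysosomal glycosidases, fell 2.36-fold and 2.03-fold and the acid alpha-glucosidase gene Gaa 1.72-fold, while the peptidase gene Scpep1 rose 1.27-fold, the membrane protein gene Lamp1 1.25-fold and the proton pump subunit gene Atp6ap1 1.18-fold (largest edgeR adjusted p = 0.000712, for Atp6ap1). Gpnmb, a gene widely used as a readout of TFE3 and MITF activity and named here after its values were seen, had 1 count in each of 2 KO libraries and 0 in the others and was not tested. Of 16 genes for fusion of the autophagosome with the lysosome, 9 fell and 4 rose (median -0.29). The RAB7 adaptor gene Plekhm1 fell 1.72-fold, Tecpr1 1.44-fold and Rab7 itself 1.37-fold, while the tether gene Epg5, the SNARE gene Ykt6 and Rubcn, which encodes the inhibitor Rubicon, rose 1.29-fold, 1.20-fold and 1.20-fold (largest adjusted p = 0.00058, for Rubcn).

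Of 17 cargo receptor genes outside the members, 10 rose and 4 fell (median 0.17), and scaled by library size alone 9 of them passed in all. The mitophagy receptor genes Bnip3, Bnip3l and Fkbp8 rose 3.46-fold, 1.35-fold and 1.27-fold, and Calcoco1, an ER and Golgi receptor, fell 2.38-fold, Phb2 1.15-fold and the ER receptor gene Ccpg1 1.35-fold (largest edgeR adjusted p = 0.0105, for Ccpg1). Of 12 other early factors, 7 rose and 4 fell (median 0.24): the retromer regulator gene Tbc1d5, Rab1a and Trappc8 rose 1.59-fold, 1.33-fold and 1.29-fold, and Bcl2, whose product binds and inhibits Beclin 1, the WIPI relative Wdr45 and the ER scramblase gene Vmp1 fell 3.73-fold, 2.07-fold and 1.19-fold (largest adjusted p = 0.000503, for Vmp1).

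Upstream of the Rag GTPases, 8 of 23 tested genes for Ragulator, GATOR and amino acid sensors rose, 3 fell and 12 did not pass (47.8% changed; median 0.08). The arginine sensor gene Castor1 rose 3.33-fold, to 52.6 ± 1.56 CPM in KO, against 15.8 ± 0.703 CPM in WT cells, and its relative Castor2 2.59-fold, to 105 ± 9.92 CPM in KO, against 40.6 ± 1.14 CPM in WT cells (SD, n = 4; largest edgeR adjusted p = 9.1e-15, for Castor2). Itfg2, a KICSTOR subunit gene, rose 1.54-fold. Sesn1, of the leucine-sensing sestrin family, fell 2.20-fold, the KICSTOR gene Kics2 1.62-fold and the GATOR1 gene Nprl2 1.17-fold (largest adjusted p = 0.0206, for Nprl2). Of 9 tested transcriptional regulators outside the MiT/TFE family, 4 rose and 4 fell (median -0.07). Among the FOXO factors, which also act on autophagy genes, Foxo3 and Foxo1 rose 1.54-fold and 1.29-fold and Foxo4 fell 1.82-fold, while Foxk1 fell 1.22-fold and Carm1 fell 1.16-fold (largest adjusted p = 0.000764, for Carm1). Tfec, the remaining MiT/TFE gene, had 1 count in 1 WT library and none elsewhere.

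**Figure D4:**
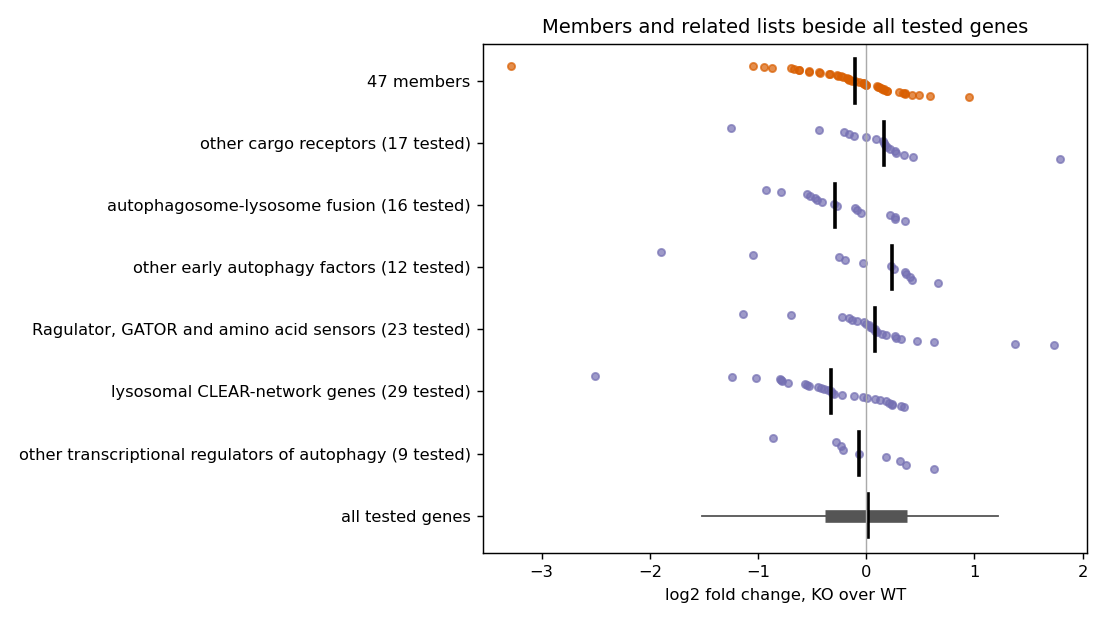
Log2 fold change, KO over WT, of the 47 members (orange) and of 6 lists of related genes (purple), 1 point per tested gene with black bars at the medians; the lowest row gives all 13707 tested genes by median, quartiles (thick) and percentiles 5 and 95 (thin). The medians run from -0.33 for lysosomal genes to 0.24 for other early factors. The quartiles of all tested genes, -0.38 and 0.37, describe single genes and are no measure for the median of a list.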

How the data were processed

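Libraries were made from 100 ng of total RNA with a stranded mRNA kit and read as pairs of 51 bp, per the labels' protocols. Build GRCm39 and the tools edgeR, limma, STAR 2.7.9a, FastQC 0.11.8 and featureCounts 1.6.0 are listed, without roles, in the submitters' processing notes. The authors deposited raw counts for 56884 genes and, for 15726 of them, log2 CPM in voom's form, which follow from the counts with 1 effective size per library. All 8 libraries were mapped by their labels and none was left out.

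Counts were tested with edgeR 4.0.16 (R 4.3.3; filterByExpr, TMM, glmQLFit with robust estimation, glmQLFTest), genotype being the only term, and p-values were adjusted by Benjamini-Hochberg over 13707 genes. The SE is the absolute log2 fold change over the square root of F. In 5 simulated data sets of these genes, 80.9%, 95.4% and 100% of genes changed 1.5-, 2- and 4-fold were recovered, and 5.03% of calls were false. Over all 5 sets only 330, 329 and 325 genes were changed at these folds, a far smaller part than the 67.9% called in the data. Recovery and false calls depend on that part, so these figures need not hold for the data. Exon lengths are unions over GENCODE M21 (GRCm38), matched by gene ID for all 47 members. The labels give replicate numbers without stating a pairing, and the main fit treated the libraries as unpaired.

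Members and lists were chosen with earlier results of these data known. Named were all members, with values in every library for those that passed at 1.5-fold or are central to a role, and up to 3 risers and 3 fallers per list, of which 1 gene is not reported here. No promoter met the rule for printing (at least 2-fold with a CACGTG), and those shown were chosen after values were seen. Alternatives were other scalings and filters, DESeq2 1.42.0, limma-voom and limma on deposited values (limma 3.58.1), glmTreat, the replicate block and leaving out each library. P-values measure the spread between these cultures. Figures used matplotlib 3.10.9 under Python 3.11.15.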

Additional observations from a re-analysis of the deposited data

Results flagged for a closer look

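In 6 of 96 gene-by-genotype groups (47 members and Stk11) 1 library stood apart from the other 3 by Dixon's test, where chance alone gives about 1 in 20, or 4.8. Within KO libraries, replicate 3 was lowest for Atg12, at 69.1 CPM against 95.4 to 98.9 CPM in the others, and for Atg10, at 3.38 CPM against 5.14 to 5.30 CPM. Within WT libraries, replicate 3 was highest for Flcn, at 36.9 CPM against 32.6 to 32.9 CPM, and lowest for Rraga, at 82.6 CPM against 85.4 to 85.6 CPM. WT replicate 1 was lowest for Atg13, at 48.4 CPM against 52.7 to 53.6 CPM, and WT replicate 4 was lowest for Atg4c, at 22.9 CPM against 26.0 to 26.6 CPM.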

How the results depend on the processing

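Leaving out 1 library gave 28 to 33 changed members, 9 to 12 higher and 18 to 21 lower, and 8905 to 9634 changed genes in all, 4513 to 4856 higher and 4389 to 4778 lower; MiT/TFE factors ranged from 1 to 2. With the replicate number as a block 30 members changed, 10 higher and 20 lower, Ambra1 losing its call (adjusted p = 0.0636 in a range of 0.00355 to 0.188); same-numbered libraries deviated together with correlations of only -0.0985 to 0.0356, and none matched its own number best. Against a 1.5-fold change (edgeR glmTreat), a stricter question by construction, 2993 of 13707 genes passed, 1357 higher and 1636 lower. Of the 47 members 4 then passed, 1 higher and 3 lower, a smaller share than among all tested genes. The ULK1 complex, PI3-kinase, lipid supply, conjugation, ATG8 and receptor groups held 0 of them. The ATG4 group held 1 of its 5 genes and the FLCN and Rag group 2 of its 6. The lists then gave 2 of 17 other receptors, 2 of 16 fusion genes and 2 of 12 early factors. They also gave 3 of 23 Ragulator and sensor genes, 7 of 29 lysosomal genes and 1 of 9 other regulators. By library size alone 9 other receptors passed; the cause was not tested. Directions turned only for members that did not pass: Atg101 (-0.054 to 0.044 over left-out libraries), Uvrag (-0.054 to 0.024), Atg16l1 (-0.060 to 0.022) and Atg3 (-0.030 to 0.070, and -0.0056 with RLE, -0.011 with upper-quartile scaling, -0.080 by library size, -0.0030 with a filter of 1 CPM in 4 libraries, -0.0028 by DESeq2 and -0.0020 with the block). Outside glmTreat, 25 of the 31 called members kept their call in every alternative that tested them and 9 others passed in at least 1. That filter left out Rragd and Atg4a-ps, whose counts limit precision.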
